A study of Mus musculus with 40 samples.

Results

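39 genes of glucose breakdown and of the response to low oxygen were followed through the making of T helper 2 (Th2) cells in mouse CD4 T cells that were wild type or labelled as Setdb1 knockout, with 1 list of H3K9me3 peaks from Suv39h1 knockout Th2 cells. They are a list of named genes of both pathways, drawn up with earlier results of these data known, and all 39 were found among the 39179 genes of the expression table. They comprise 16 enzymes of the path from glucose to lactate, 7 genes that transport glucose or lactate or set the pace of the path, 6 subunits and regulators of the hypoxia-inducible factors (HIF), and 10 further genes known as targets of HIF. The study asks how SETDB1 bears on the stability of the Th2 state; this enzyme adds the silencing mark H3K9me3 (trimethylated lysine 9 of histone H3). RNA was sequenced in 18 libraries from spleen CD4 T cells of mice on the C57BL/6 background. Another 22 samples, among them 3 input controls, gave 13 lists of peaks for histone marks and for open chromatin (ATAC-seq).

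The 6 RNA groups crossed genotype with culture. Naive cells, taken before any culture, came from Setdb1+/+ mice (wild type, WT, 4 libraries) and from Setdb1-/- mice (knockout, KO, 3 libraries). Th2 cells had been activated through CD3 and CD28 and kept for 6 days with IL-4 (50 ng/mL) and antibody against interferon gamma, and were given IL-2 (30 IU/mL) when re-plated on day 3 (3 WT and 3 KO libraries). Th2-Th1 cells were Th2 cells moved on day 6 to medium with IL-12 at 10 ng/mL and antibody against IL-4, the conditions for T helper 1 (Th1) cells, for 2 days (2 WT and 3 KO libraries). The labels do not give the means of deletion or say that replicates were separate mice or cultures, so every p below measures the spread between libraries only. Values are the authors' normalised read counts, log2 differences carry a standard error (SE), and a gene is said to have risen or fallen where limma gave a Benjamini-Hochberg adjusted p under 0.05 over 17254 tested genes. All 39 genes passed the filter on low values.

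In glycolysis a chain of enzymes splits glucose to pyruvate, and lactate dehydrogenase turns pyruvate into lactate, which leaves the cell through monocarboxylate transporters. T cells raise this path when they are activated and divide, also where oxygen is plentiful. HIF, a pair of an alpha subunit (HIF-1 alpha from Hif1a or HIF-2 alpha from Epas1) and ARNT, activates many of its genes: with oxygen, prolyl hydroxylases of the Egln family tag the alpha subunit and the VHL protein has it destroyed, so the protein can change where its mRNA does not.

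The promoters of these genes were read first, because HIF binds a short element whose core is ACGTG or GCGTG. RefSeq start sites on the GRCm38.p6 assembly gave promoter windows, 250 bases before to 50 after a start, for 35 of the 39 genes, and 11 of these had several windows. The genes without an entry were Slc2a3, Epas1, Bnip3l and Ndrg1. Of the 35, 25 (71.4%) held ACGTG on either strand in at least 1 window, against 28.4% of 10840 tested genes and 21.8% of all 27025 genes with a window. GCGTG was in 65.7% of the 35 genes and 53.9% of tested genes, either core in 88.6% and 65.2%, and CACGTG, which holds ACGTG on both strands and is also the core E-box, in 17.1% and 11.1%. All 8 HIF-target genes with a window held ACGTG, and 14 of the 22 genes of glucose transport, glycolysis and lactate did. Among genes with a single window the shares were 66.7% of 24 and 25.2% of 8632, and 28.3% of the 6839 tested genes whose window also held at least 10 CpG.

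The 250 bases before the start are shown for 5 genes with several cores and for Tpi1, an enzyme gene with none, to let the density of cores be seen. They are given 5′ to 3′ on the strand of the gene, with ACGTG and GCGTG, and their reverse complements CACGT and CACGC, in capitals. The windows are at chr7:46845554-46845803, plus strand (Ldha), chrX:106186850-106187099, plus strand (Pgk1), chr7:138909507-138909756, minus strand (Bnip3), chr11:54100674-54100923, plus strand (P4ha2), chr8:45999851-46000100, minus strand (Ankrd37) and chr6:124814159-124814408, minus strand (Tpi1). Ldha has another window, not shown, with 0 ACGTG and 2 GCGTG. Overlapping cores, as in CACGTG, run into a single stretch of capitals.
Ldha: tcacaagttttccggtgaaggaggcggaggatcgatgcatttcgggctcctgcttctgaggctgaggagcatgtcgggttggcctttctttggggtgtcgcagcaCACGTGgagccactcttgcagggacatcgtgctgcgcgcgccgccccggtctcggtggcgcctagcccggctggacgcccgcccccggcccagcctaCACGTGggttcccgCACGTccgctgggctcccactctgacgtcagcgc
Pgk1: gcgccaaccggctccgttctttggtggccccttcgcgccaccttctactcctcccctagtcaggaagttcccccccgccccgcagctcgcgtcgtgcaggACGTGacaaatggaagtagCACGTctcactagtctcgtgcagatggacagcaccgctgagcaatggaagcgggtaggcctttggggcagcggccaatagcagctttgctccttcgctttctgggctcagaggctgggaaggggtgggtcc
Bnip3: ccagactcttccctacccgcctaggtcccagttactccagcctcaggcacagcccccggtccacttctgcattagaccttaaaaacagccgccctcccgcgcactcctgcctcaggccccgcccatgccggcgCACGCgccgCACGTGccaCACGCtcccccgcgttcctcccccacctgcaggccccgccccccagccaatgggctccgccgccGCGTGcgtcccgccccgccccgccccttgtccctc
P4ha2: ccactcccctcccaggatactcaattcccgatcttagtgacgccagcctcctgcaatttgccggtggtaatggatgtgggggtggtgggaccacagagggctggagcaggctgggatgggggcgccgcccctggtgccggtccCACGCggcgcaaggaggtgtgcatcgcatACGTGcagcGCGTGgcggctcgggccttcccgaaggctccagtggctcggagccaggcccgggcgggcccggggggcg
Ankrd37: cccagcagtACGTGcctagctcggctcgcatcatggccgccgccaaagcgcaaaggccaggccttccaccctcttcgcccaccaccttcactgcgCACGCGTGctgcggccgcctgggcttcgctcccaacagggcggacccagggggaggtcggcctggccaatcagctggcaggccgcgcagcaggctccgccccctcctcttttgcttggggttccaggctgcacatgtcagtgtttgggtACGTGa
Tpi1: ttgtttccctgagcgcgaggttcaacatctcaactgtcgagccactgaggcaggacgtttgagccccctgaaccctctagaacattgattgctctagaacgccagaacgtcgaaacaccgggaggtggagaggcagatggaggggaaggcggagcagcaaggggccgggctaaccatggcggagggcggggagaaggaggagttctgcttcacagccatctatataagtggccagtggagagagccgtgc
A match describes letters only, and Tpi1, with no core in this window, rose with the others in culture.

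Depth was uneven between the groups: naive libraries held 10.019 M to 18.511 M reads (M, mega), Th2 WT 10.141 M to 13.258 M, Th2 labelled KO 36.261 M to 44.719 M, Th2-Th1 WT 18.901 M and 19.841 M, and Th2-Th1 labelled KO 37.208 M to 37.603 M. Setdb1 itself went against the label in cultured cells: its mean was 1310 in naive WT and 1006 in naive KO, but 822.6 and 8485 in Th2 cells and 1603 and 6244 in Th2-Th1 cells. The log2 difference by limma, KO minus WT, was -0.38 ± 0.11 (adjusted p = 0.0319), 3.37 ± 0.12 (adjusted p = 7.22e-14) and 1.95 ± 0.13 (adjusted p = 3.04e-09), so these are called libraries labelled KO throughout. Which part of the gene was deleted is unknown here, and reads outside that part would check nothing. At equal depth, naive WT libraries 1 and 3 and naive library 2 labelled KO showed 21283, 25556 and 22195 genes, and the remaining 15 libraries showed 15114 to 18607. All 6 T cell genes tested as markers (Cd3e, Cd3d, Cd3g, Cd4, Cd5 and Cd28) were present in every group, with summed values of 57390 to 81210 in naive cells, 42050 to 42360 in Th2 WT and 27230 to 30190 in Th2 libraries labelled KO. Of 9 myeloid genes, summed values were 1253 to 1622 in Th2 WT and 4670 to 5461 in Th2 libraries labelled KO; nearly all of it was Emr1 (1442 ± 182.4 and 5144 ± 423.1), while Lyz2 was at 0 in Th2 WT and 0.5979 ± 0.5278 in those labelled KO. B cell genes summed to 5035 to 6974 in naive WT and 3547 to 4235 in naive libraries labelled KO. In Th2 cells their sums were 294.4 to 399.1 in WT and 756.2 to 1319 in those labelled KO. CD8 and natural killer genes summed to 11100 to 14380 in Th2 WT and 5474 to 5627 in Th2 labelled KO, mostly Gzma. Of these 7 genes 4, Cd8a among them, were at 0 in every Th2 WT library, and 0 of the 7 were so in the deeper Th2 libraries labelled KO. Red cell and platelet genes summed to 82.2 to 651.8 in naive WT and 149.9 to 731.4 in naive libraries labelled KO. Their sums in Th2 cells were 24.12 to 56.46 and 391.3 to 440.6. In bulk RNA, fewer cells of a type and less RNA per cell cannot be told apart.

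Taken by group mean, 34 of the 39 genes had their highest level in Th2 WT cells. The exceptions were Hk2 (highest in Th2-Th1 cells labelled KO), Pfkfb4 and Epas1 (Th2-Th1 WT), Pdk1 (naive WT) and Arnt (naive cells labelled KO). The 16 enzymes together took 0.162 ± 0.006% of all gene reads in naive WT (SD, n = 4), 2.096 ± 0.076% in Th2 WT (n = 3) and 0.730 ± 0.005% in Th2-Th1 WT (n = 2). In libraries labelled KO the same shares were 0.156 ± 0.013%, 0.774 ± 0.021% and 0.991 ± 0.028% (n = 3 each). The 10 HIF targets went from 0.035 ± 0.004% in naive WT to 0.304 ± 0.019% in Th2 WT, but stood at 0.043 ± 0.002% in Th2 cells labelled KO, beside 0.035 ± 0.004% in naive cells labelled KO.

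**Figure D1:**
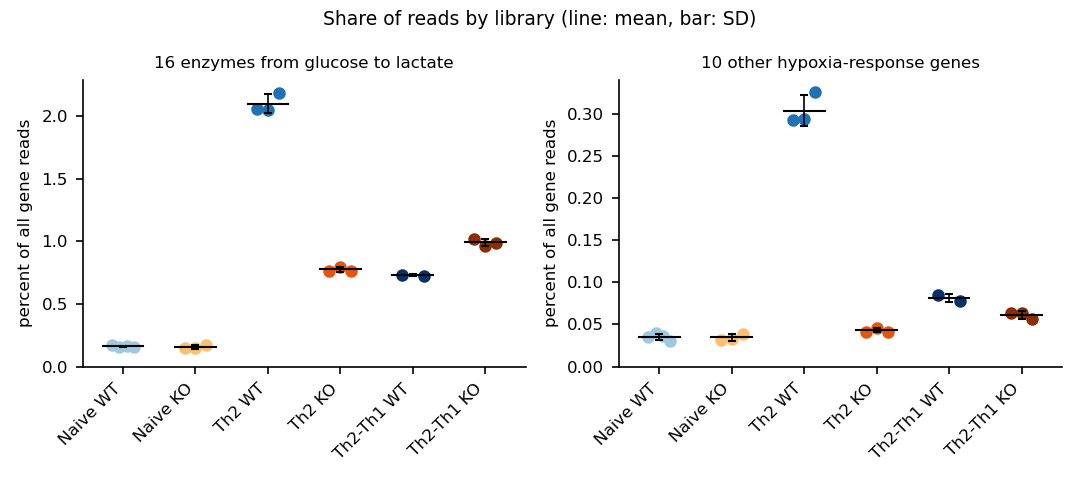
Percent of all gene reads per library that fell on the 16 enzymes from glucose to lactate (left) and on the 10 HIF-target genes (right), by group; KO stands for libraries labelled Setdb1 KO. Points are libraries, lines group means and bars SD; for the enzymes the 3 Th2 WT libraries sit between 2.048% and 2.184%, above all others.

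**Figure D2:**
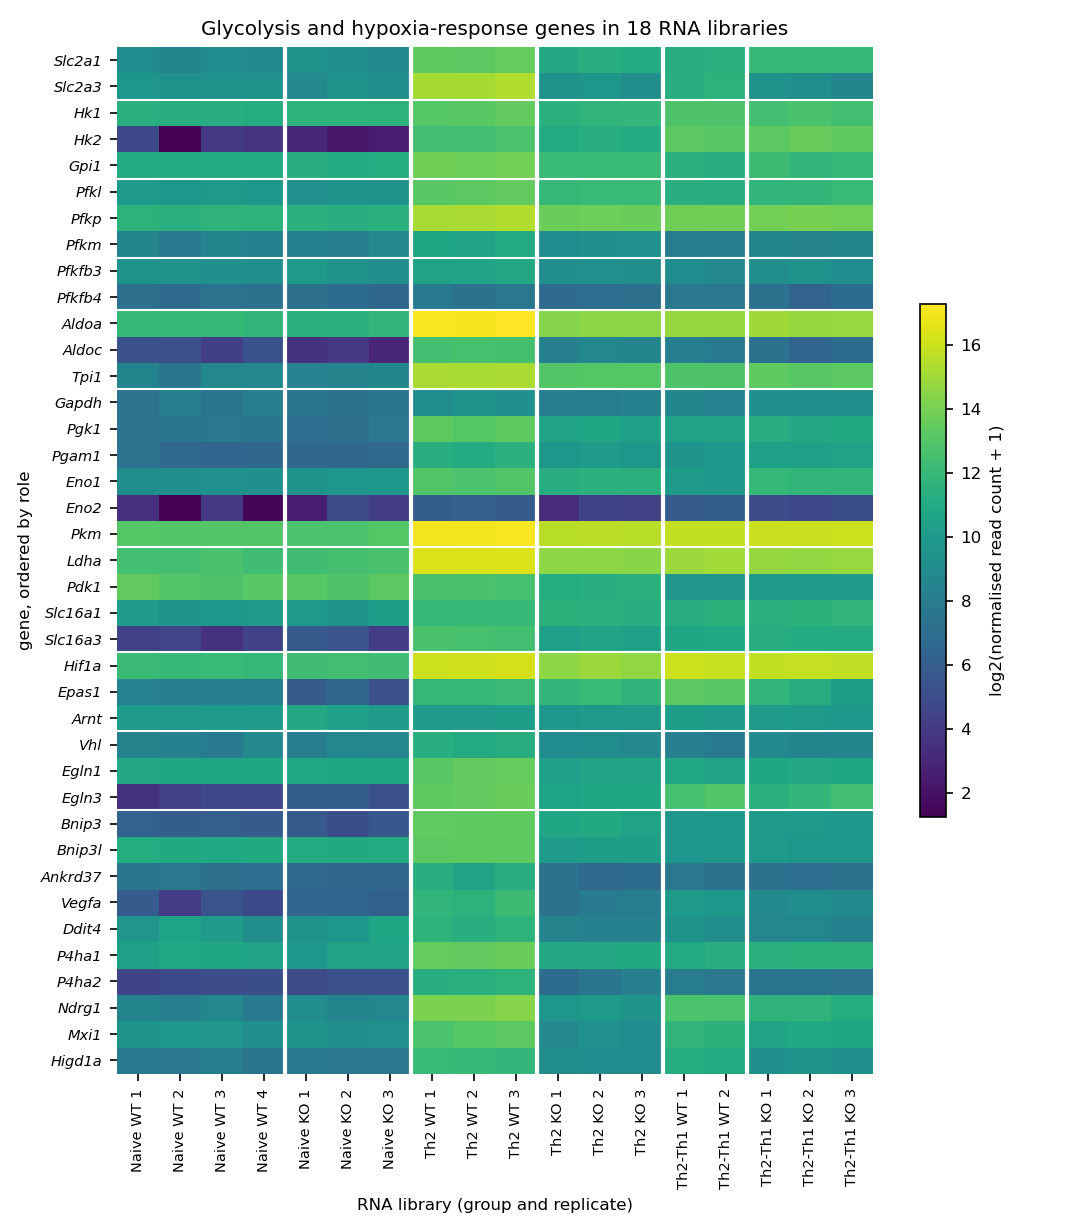
Level of each of the 39 genes (rows, ordered by role from transport to HIF targets) in each of the 18 RNA libraries (columns), as log2 of the normalised read count plus 1; KO stands for libraries labelled Setdb1 KO. The Th2 WT columns are the brightest in most rows, and Pdk1 and Arnt are rows where they are not.

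Th2 culture of WT cells raised nearly the whole set. Against naive WT, 36 of 39 genes rose and 1 fell, where 32.8% of tested genes rose, 33.1% fell and 65.9% were called in either direction. The median log2 difference was 3.71 for the 39 genes and -0.14 for all tested genes. All 16 enzymes and all 10 HIF targets rose, with medians of 3.82 and 3.95. The gene that fell was Pdk1, and Arnt (0.11 ± 0.15) and Pfkfb4 (0.41 ± 0.23) were not called. In 37 genes the libraries of the groups did not overlap, beside 61.0% of tested genes. Scaling to total reads moved the median of all tested genes to -0.589 and left 36 of the 39 higher and 2 lower; the second was Arnt, at -0.38 there.

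In cells labelled KO the same culture also raised most of the set, with a smaller median. Against naive cells labelled KO, 26 rose and 4 fell, where 28.3% of tested genes rose and 25.2% fell (53.5% either way). The median was 1.39, against -0.03 over all tested genes, and 32 genes had no overlap, beside 63.5%. Of the 36 genes that rose in WT culture, 26 rose here, 8 were not called and 2 fell (Bnip3l and Ddit4). The 8 were Slc2a3, Hk1, Pfkfb3, Eno2, Vhl, Egln1, Ankrd37 and Mxi1, and a missing call does not show them to be unchanged. Pdk1 (-1.78 ± 0.12) and Arnt (-0.65 ± 0.16) fell as well.

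Side by side after 6 days, Th2 cells labelled KO held less RNA of nearly every gene of the set. Against Th2 WT, 36 of 39 genes fell and 0 rose by limma, and 0 rose at an unadjusted p under 0.05 or by edgeR or DESeq2, where 24.7% of tested genes fell, 29.3% rose and 54.0% were called either way. In 38 of 39 genes the libraries of the groups did not overlap, against 64.6% of tested genes. The median was -2.15, beside 0.13 over all tested genes. That background median was 0.276 with TMM scaling and 0.532 with scaling to total reads, which left 34 and 33 of the 39 lower. All 16 enzymes (median -1.58) and all 10 HIF targets (median -3.54) fell, as did 4 of 6 HIF subunits and regulators and 6 of 7 genes of transport and control. Epas1, Arnt and Pfkfb4 were not called. Genotype and depth cannot be told apart here, since each Th2 library labelled KO was deeper than each WT one. Depth was likewise apart, without overlap, between the genotypes in Th2-Th1 cells, between naive and Th2 cells labelled KO, and between Th2 and Th2-Th1 WT. It thus enters both interactions as well. Ribosomal protein genes took 6.293% to 7.091% of reads in Th2 WT against 2.224% to 2.346% in Th2 libraries labelled KO. In the same comparison 9 of 15 cell cycle genes were higher (median 0.85), 8 of 13 immediate early and heat shock genes lower (median -0.6) and 1 higher, and 3 of 6 naive T cell genes lower (median -0.94) and 1 higher. The part in these falls of depth, of the ribosomal share, of these lists and of the markers above was not tested. As a test of the difference itself, the genotype effect in Th2 cells was lower than that in naive cells for 36 of 39 genes and higher for 1, where 20.6% and 20.7% of tested genes were called in these directions (41.3% in all).

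**Figure D3:**
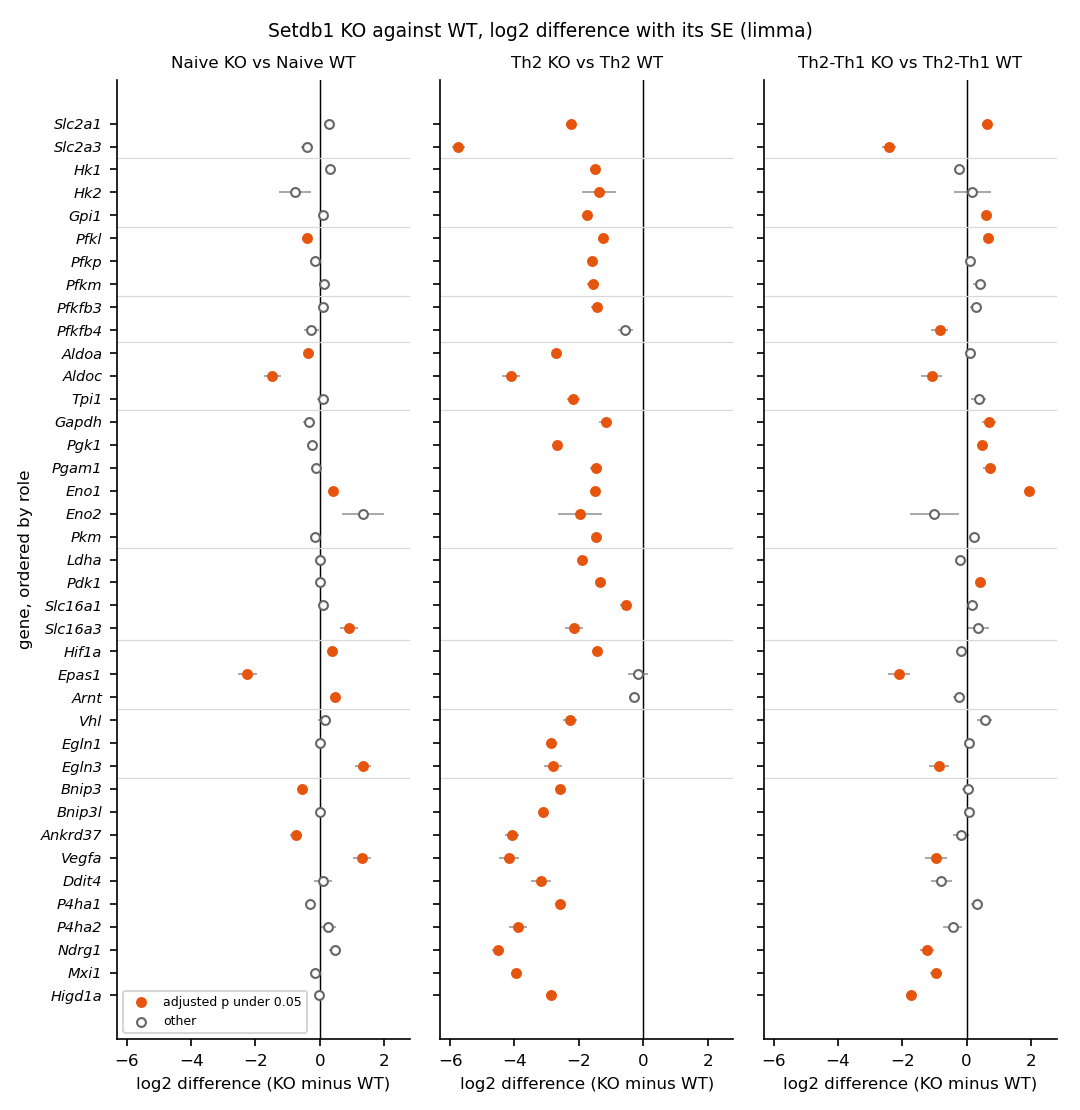
Log2 difference between libraries labelled Setdb1 KO and WT for each of the 39 genes in naive, Th2 and Th2-Th1 cells, with its SE from limma; filled points have an adjusted p under 0.05. In Th2 cells 36 points are filled and all lie left of 0, and in the other conditions filled points lie on both sides.

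On moving Th2 cells to Th1 medium, most of the set fell in WT cells and not in cells labelled KO. No RNA group was kept in Th2 medium for the same 2 days, so medium and added time in culture cannot be told apart. In WT, 32 of 39 genes fell and 1 rose (Epas1, a call lost without Th2-Th1 WT library 1), where 24.0% and 25.8% of tested genes did (49.8% either way), with a median of -1.99 against 0 over all tested genes. No overlap was seen for 36 genes, beside 62.7% of tested genes. In cells labelled KO, 15 rose and 5 fell, where 13.0% and 13.6% of tested genes did (26.7% either way), with a median of 0.23 against 0, and 27 did not overlap, beside 49.3%. After the switch, 8 genes were higher and 9 lower in cells labelled KO than in WT, near the background of 17.6% higher and 16.1% lower (33.7% in all), with a median of 0.08 beside 0.09. Here 32 genes did not overlap, beside 59.9%. With scaling to total reads, where the background median was 0.351, 18 were higher and 5 lower. Without Th2-Th1 WT library 1 the calls were 9 in place of 17, and without library 2 they were 11; 8 of the 17 held under all 13 alternatives. Of 5 Th2-defining genes (Gata3, Il4, Il5, Il13 and Il4ra), summed values were 39240 to 41560 in Th2 WT, 369200 and 418700 in Th2-Th1 WT, 42170 to 43920 in Th2 labelled KO and 42190 to 84050 in Th2-Th1 labelled KO. Il4ra had most of the sum in Th2 cells. By genotype 3 of the 5 (Il4, Il5 and Il13) were lower and 1 (Il4ra) higher in Th2 cells labelled KO, with a median of -1.66, and 4 were lower in Th2-Th1 cells, with a median of -2.62. T cell genes summed to 90720 to 95200 in Th2-Th1 WT and 40880 to 45980 in those labelled KO, and 5 of 6 rose on the WT switch. Ribosomal protein genes took 2.925% and 3.103% of reads in Th2-Th1 WT, under the Th2 WT share. The part of these genes in the changes of the set was not tested. The genotype effect differed between Th2 and Th2-Th1 cells for 35 of 39 genes, higher after the switch in 34 and lower in 1, where 17.3% and 18.2% of tested genes were called in these directions (35.5% in all).

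Before culture the genotypes differed in 12 of the genes, in both directions. In naive cells labelled KO 6 were higher and 6 lower than in WT, where 7.43% and 3.45% of tested genes were (10.9% in all), with a median of 0.02 beside 0, and 12 did not overlap, beside 16.6%. Higher were Eno1, Slc16a3, Hif1a, Arnt, Egln3 and Vegfa, and lower were Pfkl, Aldoa, Aldoc, Epas1, Bnip3 and Ankrd37. These calls leaned on single libraries: 4 were made without naive library 2 labelled KO, 6 without the 3 naive libraries that stand apart (chosen after the data were seen), and 1 when only the naive libraries entered the fit. In the same comparison 14 of 15 cell cycle genes were higher, with a median of 3.08; its part was not tested.

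Glucose enters T cells through the transporters GLUT1 (Slc2a1) and GLUT3 (Slc2a3). Slc2a3 was 864.4, 694.6, 706.1 and 720.8 in the naive WT libraries and 438.6, 700.9 and 569.8 in those labelled KO. It was 35460, 35810 and 42830 in Th2 WT and 705.6, 848 and 582 in Th2 libraries labelled KO. After the switch it was 2653 and 3202 in WT and 731.3, 602.1 and 376.4 in those labelled KO. The Th2 WT libraries were thus far above every other library, and the Th2 libraries labelled KO lay within the range of all naive libraries pooled. The difference in Th2 cells was -5.75 ± 0.2 (adjusted p = 7.22e-14), the largest fall of the 39, and that after the switch was -2.41 ± 0.23 (adjusted p = 1.85e-07). Within WT the log2 change was 5.67 ± 0.19 in culture and -3.7 ± 0.23 on switching.

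Slc2a1 was 527.6, 361.7, 541.4 and 479.9 in naive WT, and 678.9, 578.7 and 495.3 in naive libraries labelled KO. In Th2 cells it was 10310, 9617 and 11670 for WT and 1937, 2501 and 2222 for those labelled KO, and after the switch 2408 and 2716 for WT and 3949, 3911 and 4077 for those labelled KO. GLUT1 RNA rose in culture in both genotypes (log2 4.47 ± 0.13 in WT and 1.93 ± 0.14 in cells labelled KO), and after the switch every library labelled KO was above both WT libraries. The genotype difference was -2.25 ± 0.14 (adjusted p = 1.66e-10) in Th2 cells and 0.64 ± 0.16 (adjusted p = 0.00446) in Th2-Th1 cells, the latter lost without Th2-Th1 WT library 1. The log2 ratio of Slc2a3 to Slc2a1 within a library, in which gene length cancels between groups, was 1.85 in Th2 WT (1.78 to 1.90), -1.65 in Th2 libraries labelled KO (-1.93 to -1.46), 0.19 in Th2-Th1 WT (0.14 to 0.24) and -2.85 in Th2-Th1 libraries labelled KO (-3.43 to -2.43).

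Hexokinases trap glucose as its phosphate. Hk2, the form that activated cells switch on, was 26.2, 1.37, 14.48 and 12.28 in naive WT and 7.434, 4.164 and 4.586 in naive libraries labelled KO. It was 5827, 5465 and 6840 in Th2 WT and 2105, 2656 and 2262 in Th2 labelled KO, then 9650 and 9113 in Th2-Th1 WT and 9994, 11910 and 10020 in those labelled KO. It was nearly silent before culture, and among the 16 enzymes it stood apart in that the switched libraries of both genotypes were the highest. Its rise in culture, 9.13 ± 0.49 in WT and 8.54 ± 0.52 in cells labelled KO, was the largest of the set in cells labelled KO, and in WT it was level with that of Egln3 (9.1 ± 0.26) within the errors. The genotype difference in Th2 cells was -1.37 ± 0.52 (adjusted p = 0.0324), and this call was lost under 9 of 14 alternatives, including leaving out any 1 of the 6 Th2 libraries. Cells labelled KO rose again by 2.19 ± 0.52 (adjusted p = 0.00338) after the switch. Hk1, the form that most cells carry, went from 2498 ± 232.8 to 9637 ± 1187 in WT culture, and was 3136 ± 29.8 and 3386 ± 477.5 in naive and Th2 cells labelled KO. Gpi1, the isomerase of the next step, was 14630 ± 592.7 in Th2 WT and 4376 ± 140.9 in Th2 labelled KO.

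Phosphofructokinase makes the committed step. Its platelet-type gene Pfkp was 3147, 2811, 3246 and 3138 in naive WT, and 2824, 2544 and 2906 in naive libraries labelled KO. Th2 WT had 38030, 38990 and 44350 and Th2 labelled KO 13290, 13660 and 13120, and the switched libraries 14320 and 14310 in WT and 15050, 16130 and 15140 in those labelled KO. All cultured libraries were above all naive ones, and Th2 WT above all others. The Th2 difference was -1.6 ± 0.09 (adjusted p = 1.7e-11), beside those of Pfkl (-1.26 ± 0.11) and Pfkm (-1.57 ± 0.18). Pfkfb3, whose product makes the activator of phosphofructokinase, was 726, 726.1, 644.6 and 608.4 in naive WT and 1004, 703.7 and 544.6 in naive labelled KO. Its values were 1462, 1568 and 1931 in Th2 WT, 553.9, 656.8 and 590 in Th2 labelled KO, 535.1 and 449.6 in Th2-Th1 WT and 587, 690.2 and 533.6 in Th2-Th1 labelled KO. Only the Th2 WT libraries stood above the range of naive cells, with a Th2 difference of -1.45 ± 0.18 (adjusted p = 8.91e-07). The sister gene Pfkfb4 was low everywhere (group means from 117.8 ± 34.52 to 205.6 ± 1.58) and differed by -0.56 ± 0.24 in Th2 cells, without a call.

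Aldolase splits the sugar into triose phosphates. Aldoa was 3863, 3988, 4170 and 3603 in naive WT and 2944, 2752 and 3448 in naive libraries labelled KO. It reached 144600, 141200 and 161500 in Th2 WT and 21850, 23350 and 23480 in Th2 labelled KO, and was 28320 and 27420 in Th2-Th1 WT and 32890, 28150 and 28940 in those labelled KO. The cultured libraries other than Th2 WT shared a narrow range, several times above naive cells and far under Th2 WT. The Th2 difference was -2.7 ± 0.1 (adjusted p = 1.35e-13). Aldoc, the brain-type aldolase, was 36.17, 34.25, 18.11 and 37.79 in naive WT and 11.15, 13.88 and 6.879 in naive labelled KO, and none of these overlapped. In Th2 WT it was 5835, 6244 and 6149, and in Th2 labelled KO 296, 401.2 and 365.2. The switched libraries had 285.8 and 218.4 in WT and 154.1, 87.16 and 117.8 in those labelled KO. Aldoc was lower in libraries labelled KO at every stage, with differences of -1.48 ± 0.27 (adjusted p = 0.00121) in naive, -4.11 ± 0.29 (adjusted p = 6.16e-10) in Th2 and -1.09 ± 0.33 (adjusted p = 0.0135) in Th2-Th1 cells; the last call was lost under 4 of 13 alternatives and the first when only the naive libraries were fitted. In WT it fell by 4.60 on the log2 scale after the switch, the largest such fall of the set. Tpi1, triose phosphate isomerase, went from 343.7 ± 109 in naive WT to 38490 ± 1089 in Th2 WT and was 8518 ± 239.2 in Th2 labelled KO.

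In the lower part of the path, ATP is made by Pgk1 and pyruvate kinase. Pgk1 was 160.9, 175.4, 195.5 and 187.1 in naive WT and 126.4, 141.6 and 196 in naive libraries labelled KO. It was 10410, 8641 and 10170 in Th2 WT and 1575, 1623 and 1395 in Th2 labelled KO, then 1460 and 1564 in Th2-Th1 WT and 2387, 1931 and 2036 in those labelled KO. Th2 WT libraries again led, and in Th2-Th1 cells every library labelled KO was above both WT libraries. Its difference was -2.67 ± 0.14 (adjusted p = 1.38e-11) in Th2 cells and 0.48 ± 0.16 (adjusted p = 0.0246) after the switch, the latter lost under 4 of 13 alternatives. Gapdh was only 160.9, 264.4, 172 and 274.9 in naive WT, 175.9, 154.1 and 173.1 in naive labelled KO, 556.5, 740.4 and 621.2 in Th2 WT and 271.4, 263.3 and 310.2 in Th2 labelled KO. In Th2-Th1 cells it was 383.9 and 327.6 in WT and 618.3, 572.5 and 542.5 in those labelled KO. Gapdh has many near-identical pseudogene copies in the mouse, as have Pgk1, Tpi1, Ldha, Eno1, Pgam1, Aldoa and Pkm in part. No source used here says how reads that fit several copies were counted, so the absolute levels of these genes are uncertain. The same holds for the share of reads of the 16 enzymes, which includes them. Whether differences between groups are affected was not tested. The difference of Gapdh was -1.17 ± 0.19 (adjusted p = 3.65e-05) in Th2 and 0.7 ± 0.22 (adjusted p = 0.0164) in Th2-Th1 cells, the latter lost without Th2-Th1 WT library 2 or without Th2-Th1 library 1 labelled KO.

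Eno1, alpha enolase, changed sides between the cultures. Naive libraries had 591.3, 579.5, 653.6 and 635.8 in WT and 714.9, 828.6 and 906.8 in those labelled KO. Th2 libraries had 8003, 6849 and 7878 in WT and 2394, 2930 and 2734 in those labelled KO, and Th2-Th1 libraries 1000 and 910.8 in WT and 3943, 3465 and 3635 in those labelled KO. Libraries labelled KO were thus lower than WT in Th2 cells and higher in Th2-Th1 cells, with no overlap. The differences were -1.5 ± 0.11 (adjusted p = 7.89e-10) and 1.94 ± 0.12 (adjusted p = 1.11e-09), the latter the highest of the 39 genes in Th2-Th1 cells. Pgam1, phosphoglycerate mutase, was 2643, 2206 and 2876 in Th2 WT and 861.8, 1067 and 861.3 in Th2 labelled KO, and 761.8 and 885.3 in Th2-Th1 WT and 1298, 1337 and 1418 in those labelled KO. Its naive values were 160.9, 109.6, 86.91 and 103 in WT and 97.88, 102.7 and 107.8 in those labelled KO, which overlap. It differed by 0.72 ± 0.2 (adjusted p = 0.00776) after the switch, a call lost without Th2-Th1 WT library 1. Pkm, pyruvate kinase, was 8318 ± 249.7, 136600 ± 6844 and 57770 ± 763 in naive, Th2 and Th2-Th1 WT, and 7510 ± 1010, 49250 ± 976.3 and 67340 ± 619.9 in those labelled KO. Eno2, the neuronal enolase, was low, with group means from 6.931 ± 6.395 in naive WT to 64.3 ± 5.541 in Th2 WT. Its call in Th2 cells (-1.97 ± 0.69 (adjusted p = 0.0212)) was lost with scaling to total reads, without Th2 WT library 2 and without Th2 library 1 labelled KO.

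The end of the path divides between lactate and the mitochondrion. Ldha, lactate dehydrogenase A, was 5772, 5696, 6638 and 5424 in naive WT and 5332, 6062 and 6565 in naive libraries labelled KO. It was 90120, 87450 and 89640 in Th2 WT and 24440, 24900 and 22700 in Th2 labelled KO, and 29680 and 34540 in Th2-Th1 WT and 27540, 26520 and 29030 in those labelled KO. All cultured libraries were above the naive ones, and the Th2 WT libraries above the rest. The Th2 difference was -1.89 ± 0.1 (adjusted p = 1.2e-11). Slc16a3, the lactate exporter MCT4, was 19.96, 23.29, 10.86 and 19.84 in naive WT, 53.27, 43.02 and 17.2 in naive labelled KO, 6581, 6211 and 5658 in Th2 WT and 1256, 1543 and 1355 in Th2 labelled KO. After the switch it was 1714 and 1858 in WT and 2481, 2248 and 2140 in those labelled KO. It rose by 8.35 ± 0.27 in WT culture and by 5.29 ± 0.29 in cells labelled KO, and its difference in Th2 cells was -2.15 ± 0.29 (adjusted p = 4.03e-06). The naive difference, 0.9 ± 0.27 (adjusted p = 0.0398), was lost under 8 of 16 alternatives. Slc16a1 (MCT1), which carries lactate both ways, differed by -0.55 ± 0.16 (adjusted p = 0.00781) in Th2 cells, a call lost with TMM or total-read scaling.

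Pdk1, whose product holds back the use of pyruvate within mitochondria, ran against the set in culture. Its level was 10920, 8054, 7251 and 9308 in naive WT and 8909, 7699 and 9902 in naive libraries labelled KO. Th2 libraries had 6549, 6552 and 6339 in WT and 2339, 2521 and 2827 in those labelled KO, and Th2-Th1 libraries 780.7 and 767.9 in WT and 1019, 1030 and 1070 in those labelled KO. It thus stepped down from naive to Th2 to Th2-Th1 cells in both genotypes. In WT the log2 change was -0.44 ± 0.12 (adjusted p = 0.00255) in culture and -3.06 ± 0.14 (adjusted p = 3.68e-12) on switching. In cells labelled KO these were -1.78 ± 0.12 (adjusted p = 3.67e-10) and -1.3 ± 0.12 (adjusted p = 1.69e-07). The genotype difference was -1.34 ± 0.12 (adjusted p = 2.53e-08) in Th2 cells, lower as for most of the set.

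Among the HIF subunits Hif1a and Epas1 parted. Hif1a was 4623, 4019, 4268 and 3975 in naive WT and 5309, 5675 and 5396 in naive libraries labelled KO. It was 69650, 72360 and 79500 in Th2 WT and 24150, 30470 and 26480 in Th2 labelled KO, and 68830 and 64120 in Th2-Th1 WT and 58310, 61040 and 55700 in those labelled KO. In Th2-Th1 WT both libraries lay just under the Th2 WT range, and in cells labelled KO the switched libraries stood well above the Th2 ones, though below both switched WT libraries. The Th2 difference was -1.45 ± 0.1 (adjusted p = 3.43e-10), the change on switching was -0.15 ± 0.11 in WT, without a call, and 1.12 ± 0.1 (adjusted p = 5.81e-08) in cells labelled KO.

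Epas1 was 331.8, 269.9, 284.3 and 262.6 in naive WT and 60.71, 94.38 and 36.69 in naive libraries labelled KO. In Th2 cells it was 3902, 3917 and 4570 for WT and 3686, 4265 and 3231 for those labelled KO, and after the switch 9590 and 8965 for WT and 3631, 2467 and 1137 for those labelled KO. The genotypes overlapped in Th2 cells, and libraries labelled KO were below WT before and after. The differences were -2.25 ± 0.29 (adjusted p = 2.94e-05) in naive, -0.15 ± 0.31 (adjusted p = 0.718) in Th2 and -2.1 ± 0.35 (adjusted p = 0.000106) in Th2-Th1 cells, and the first was called under all 16 alternatives and the last under all 13. Culture of cells labelled KO raised Epas1 by 5.94 ± 0.31 (adjusted p = 6.16e-12). The log2 ratio of Epas1 to Hif1a was -4.16 in Th2 WT (-4.21 to -4.12) and -2.86 in Th2 labelled KO (-3.03 to -2.71), but -2.84 in Th2-Th1 WT (both libraries) and -4.75 in Th2-Th1 labelled KO (-5.61 to -4.00). Arnt, the shared partner, had group means from 913.3 ± 73.04 in Th2 cells labelled KO to 1471 ± 452.7 in naive cells of that label.

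**Figure D4:**
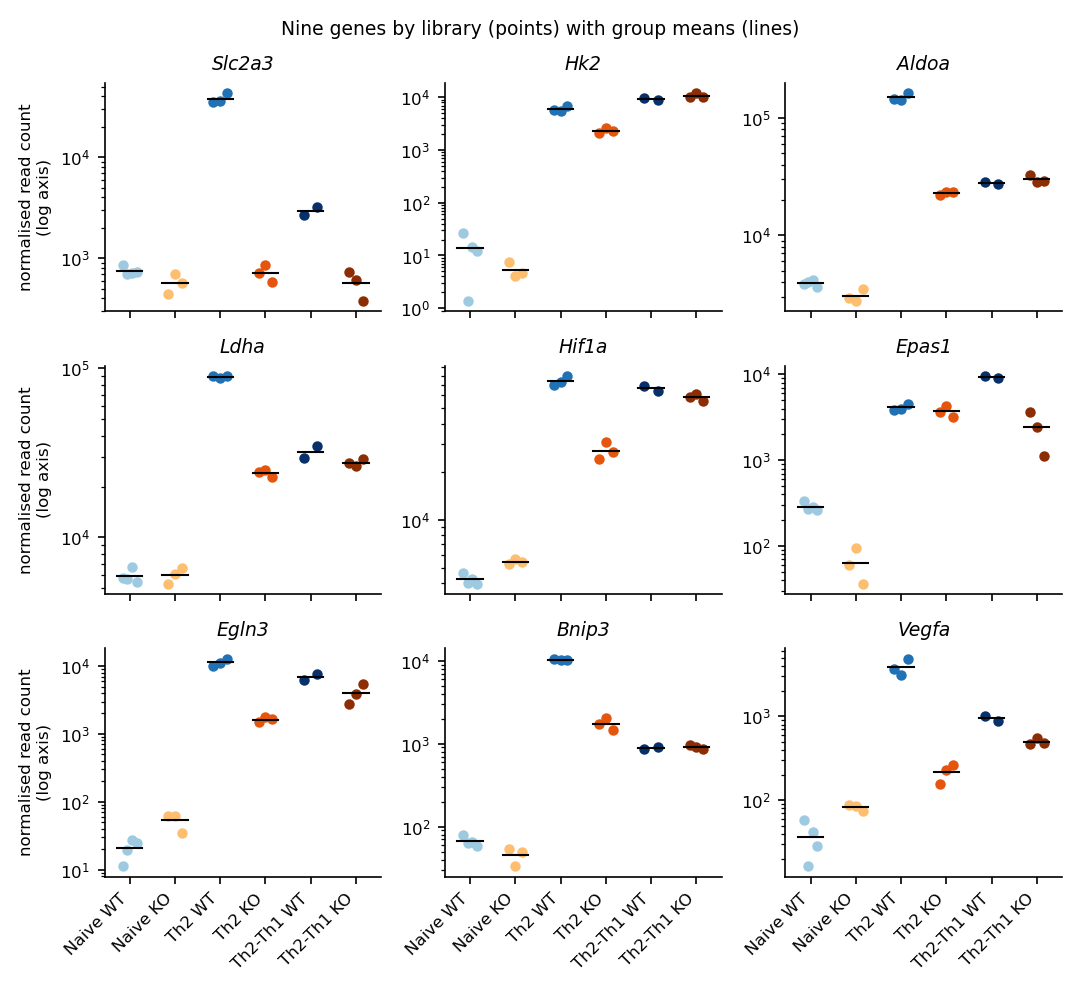
Normalised read count of 9 genes in each library (points, log axis) with the group mean (line); KO stands for libraries labelled Setdb1 KO. Th2 WT leads in 7 panels, Hk2 is highest in Th2-Th1 cells of both genotypes, and Epas1 is highest in Th2-Th1 WT.

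The oxygen sensors are both regulators and targets of HIF. Egln3, the most inducible of the prolyl hydroxylases, was 11.23, 19.18, 27.16 and 24.56 in naive WT and 61.95, 62.45 and 34.39 in naive libraries labelled KO. It rose to 10100, 10960 and 12910 in Th2 WT and 1506, 1748 and 1640 in Th2 labelled KO, and was 6303 and 7725 in Th2-Th1 WT and 2765, 3838 and 5453 in those labelled KO. Switched WT libraries lay under the Th2 WT range (log2 -0.69 ± 0.31, without a call), and switched libraries labelled KO above the Th2 ones (1.25 ± 0.28, called). The differences were 1.34 ± 0.26 (adjusted p = 0.00188) in naive, -2.79 ± 0.28 (adjusted p = 6.66e-08) in Th2 and -0.85 ± 0.31 (adjusted p = 0.0402) in Th2-Th1 cells, the last lost under 8 of 13 alternatives. The naive call of Egln3 was lost when only the naive libraries were fitted. Egln1 was 10710 ± 1265 in Th2 WT but 1471 ± 174.9 in Th2 labelled KO, beside 1715 ± 144.3 in naive cells of that label. Vhl, which marks hydroxylated HIF for destruction, was 2418 ± 284 and 502 ± 58.26 in the Th2 groups, in the same order.

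The 10 HIF targets had the lowest median of the 4 functional groups in Th2 cells labelled KO. Bnip3, which sends mitochondria to autophagy, was 78.59, 63.02, 65.18 and 58.57 in naive WT and 53.27, 33.31 and 49.3 in naive libraries labelled KO. It was 10640, 10150 and 10140 in Th2 WT, 1709, 2017 and 1457 in Th2 labelled KO, 851.6 and 909.7 in Th2-Th1 WT and 951.9, 924.2 and 864.2 in Th2-Th1 labelled KO. The switched libraries of both genotypes overlapped, below either Th2 group. Its Th2 difference was -2.59 ± 0.16 (adjusted p = 1.24e-10). The related Bnip3l was 2353, 2085, 1910 and 2009 in naive WT and 2095, 2044 and 2205 in naive labelled KO. It was 9878, 10040 and 10140 in Th2 WT and 1131, 1207 and 1143 in Th2 labelled KO, and 822.1 and 863.2 in Th2-Th1 WT and 974.4, 839.5 and 855.8 in those labelled KO. Th2 libraries labelled KO thus lay below their naive counterparts, with -0.87 ± 0.09 (adjusted p = 1.36e-07) from naive to Th2.

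Ndrg1, a stress-induced gene, was 356.8, 279.5, 432.7 and 241.9 in naive WT and 565, 353.9 and 432.2 in naive libraries labelled KO. It was 17850, 18340 and 21550 in Th2 WT and 836, 932.2 and 762.9 in Th2 labelled KO, then 6988 and 6765 in Th2-Th1 WT and 3281, 3300 and 2335 in those labelled KO. The genotypes were far apart in Th2 cells and nearer after the switch, when WT came down and cells labelled KO went up. The differences were -4.51 ± 0.19 (adjusted p = 8.57e-13) and -1.23 ± 0.21 (adjusted p = 0.000186). Vegfa, the vascular growth factor, was 58.63, 16.44, 41.64 and 28.34 in naive WT and 87.96, 84.66 and 75.67 in naive labelled KO. Its Th2 values were 3621, 3132 and 4887 in WT and 156.5, 232.4 and 265.3 in those labelled KO, and its Th2-Th1 values 1023 and 893.4 in WT and 463.7, 550.5 and 476.9 in those labelled KO. Vegfa was higher in naive libraries labelled KO than in WT, and lower in both cultured states. The differences were 1.31 ± 0.29 (adjusted p = 0.00608), -4.16 ± 0.31 (adjusted p = 1.48e-09) and -0.95 ± 0.35 (adjusted p = 0.0438), the last lost under 8 of 13 alternatives. The naive call of Vegfa was lost when only the naive libraries were fitted.

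Ddit4, an inhibitor of the growth kinase mTORC1, varied widely among naive libraries: 788.4, 1536, 1133 and 554.6 in WT and 731, 827.2 and 1691 in those labelled KO. It was 3117, 2544 and 3158 in Th2 WT, 339.3, 317.9 and 308.2 in Th2 labelled KO, 727.6 and 577.4 in Th2-Th1 WT and 408.5, 417.8 and 308.9 in Th2-Th1 labelled KO. Th2 libraries labelled KO were below every naive library. Its Th2 difference was -3.18 ± 0.3 (adjusted p = 3.02e-08) and its change from naive to Th2 cells labelled KO was -1.64 ± 0.3 (adjusted p = 0.000105). Ankrd37, an ankyrin-repeat gene, was 185.9, 204.1, 144.8 and 139.8 in naive WT and 110.3, 92.99 and 96.3 in naive labelled KO. It was 2508, 1598 and 2435 in Th2 WT, 159.7, 105.2 and 120.9 in Th2 labelled KO, 194.9 and 146.4 in Th2-Th1 WT and 155.6, 137.7 and 153.2 in those labelled KO. Only Th2 WT stood out from the naive range, with a Th2 difference of -4.07 ± 0.22 (adjusted p = 1.35e-11) and a change of -3.65 ± 0.24 (adjusted p = 4.14e-10) on switching WT cells.

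Mxi1, an antagonist of MYC, and Higd1a, a mitochondrial protein, kept a genotype difference after the switch. Mxi1 was 6876, 8666 and 9674 in Th2 WT and 437.5, 659.5 and 526.6 in Th2 labelled KO, and 3508 and 3055 in Th2-Th1 WT and 1555, 1873 and 1650 in those labelled KO. Its naive values were 754.7, 838.4, 791.2 and 594.2 in WT and 757, 606.5 and 653.5 in those labelled KO. Higd1a was 4319, 4080 and 3680 in Th2 WT and 580.5, 522.1 and 529.6 in Th2 labelled KO, and 2338 and 2098 in Th2-Th1 WT and 642.8, 765.4 and 618.3 in those labelled KO. In both genes every library labelled KO was below every WT library of the same culture. The differences after the switch were -0.96 ± 0.18 (adjusted p = 0.000333) for Mxi1 and -1.72 ± 0.16 (adjusted p = 1.48e-07) for Higd1a, whose naive values were 243.2, 193.2, 248.1 and 174.8 in WT and 232.9, 192.9 and 194.9 in those labelled KO. P4ha2, a subunit of collagen prolyl hydroxylase, was 22.45, 27.4, 32.59 and 34.01 in naive WT and 29.73, 36.08 and 36.69 in naive libraries labelled KO. It was 2518, 2750 and 3213 in Th2 WT, 118, 186.3 and 305.3 in Th2 labelled KO, 258.7 and 206.8 in Th2-Th1 WT and 177.6, 173.8 and 161.1 in those labelled KO, so that Th2 WT again stood highest. P4ha1, its sister subunit, and P4ha2 differed by -2.58 ± 0.16 (adjusted p = 8.91e-11) and -3.89 ± 0.27 (adjusted p = 4.83e-10) in Th2 cells and were not called after the switch.

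Chromatin was described from the authors' peak lists, 1 list per group and mark, so no difference between lists has a replicate check. The mark of active promoters, H3K27ac, had a peak in the promoter window of 34 of 35 genes in Th2 WT, against 70.9% of tested genes. In Th2 cells labelled KO it was 27 of 35, against 64.2%, although that list held 40734 peaks and the WT list 31236. Gpi1, Pfkfb4, Eno2, Pdk1, Egln1, Bnip3, Vegfa and P4ha2 had a promoter peak in the WT list only, and Mxi1 in the other list only. Where at least 50% of the window had to be covered, the counts were 34 and 22, and when each list was cut to peaks that scored no less than its median they were 28 and 26, beside 63.5% and 59.7% of tested genes. Open chromatin overlapped the promoter windows of all 35 genes by at least 1 base in both lists, beside 84.7% (WT) and 80.5% (labelled KO) of tested genes. The lists held 92129 and 58523 peaks. With at least 50% of the window covered the count was 34 in both, beside 78.9% and 73.7%. With the median score as a floor the counts were 34 and 33, beside 75.6% and 70.9%. H3K9me3 was at no promoter window of the 35 in any of its 5 lists, beside 0.277% of tested genes in Th2 WT and 0.12% in Th2 labelled KO, 0.387% and 0.138% in the naive lists and 4.85% in the Suv39h1 list. Somewhere in the gene it had a peak in 7 of 39 genes in Th2 WT (Slc2a3, Hk1, Pfkfb3, Epas1, Egln1, P4ha1 and Ndrg1), near the 17.0% of all tested genes, and in 0 of 39 in Th2 cells labelled KO, where the whole list covered 1.67%. In naive cells the counts were 5 in WT and 1 in those labelled KO, beside 16% and 1.75%. In Th2 cells of Suv39h1-/- mice, which lack another H3K9 methyltransferase, 20 of 39 genes had such a peak, beside 44.0%. H3K4me1, a mark of enhancers and promoter flanks, was at 27 of 35 promoters in naive WT (59.5% of tested genes) and 17 in Th2 WT (39.0%). In a second experiment it was at 10 in Th2 WT (24.2%) and 14 in Th2 labelled KO (26.9%).

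**Figure D5:**
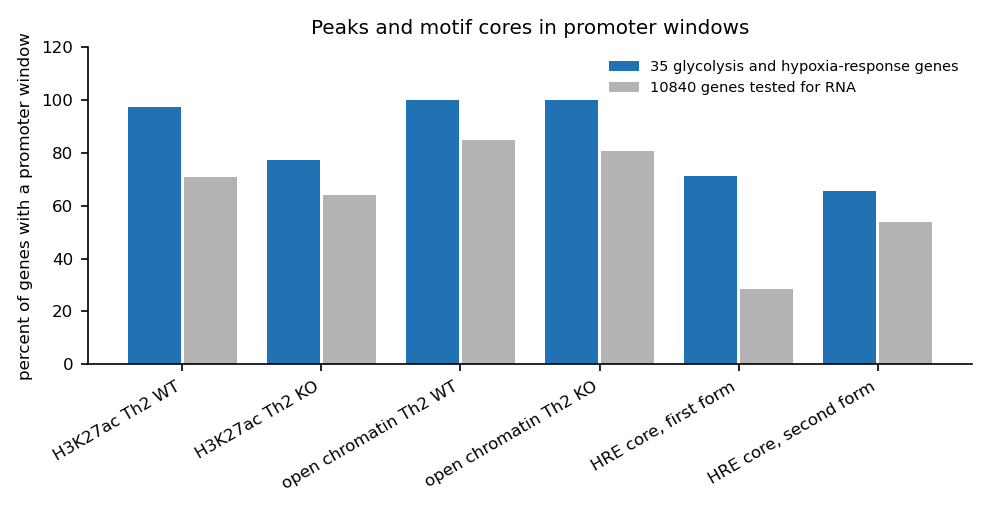
Percent of the 35 genes with a promoter window (blue) and of 10840 genes tested for RNA (grey) whose window overlapped a peak of H3K27ac or open chromatin in Th2 cells, or held the first (ACGTG) or second (GCGTG) form of the core of the hypoxia response element (HRE). KO stands for the list labelled Setdb1 KO; H3K27ac is at 97.1% of the 35 genes in the WT list and 77.1% in the other, and open chromatin is at 100% in both.

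Other genes of the pathways were counted from lists chosen with earlier results of these data known. Of 20 further hypoxia targets 18 were tested, and 12 fell and 1 rose in Th2 cells labelled KO against WT, with a median of -1.71, beside 24.7% and 29.3% of all tested genes. Ero1l, an oxidase of protein folding, was 64970 ± 4938 in Th2 WT and 4439 ± 419.5 in those labelled KO (log2 -3.87 ± 0.12, adjusted p = 1.35e-14). Fam162a was 12430 ± 994.2 and 764.7 ± 26.52 (log2 -4.02 ± 0.14, adjusted p = 7.22e-14), and Adm, the vasodilator adrenomedullin, 1735 ± 259.8 and 3.948 ± 0.8253 (log2 -8.46 ± 0.64, adjusted p = 1.44e-09). The gene that rose was Tfrc, the transferrin receptor, with a log2 difference of 2.35 ± 0.13. On switching WT cells 14 fell and 2 rose, beside 24.0% and 25.8%. Among 18 genes of the branches from glycolysis, 9 fell and 4 rose in Th2 cells labelled KO, again beside 24.7% and 29.3%. The largest falls were those of Gbe1 (-3.84 ± 0.15), Pgm2 (-2.57 ± 0.12) and Gys1 (-2.4 ± 0.16). Of 16 other isozymes and transporters of glycolysis 12 were tested, and 2 fell and 3 rose, near that background. The transporter gene Slc2a6 was 123.8 ± 12.25 in Th2 WT and 1671 ± 183.4 in those labelled KO.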

How the data were processed

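Expression came as 1 deposited table of 18 libraries. Its signal values are read counts per gene that the authors divided by a size factor per library, per the file headers and values; cutadapt 1.3, TopHat2 2.0.5 and DESeq with the mm10 build are in the submitters' processing notes, and the gene annotation and strand setting are not stated there. The file held 2 identical copies, of which the first was used. All values (100%) were whole reads within 0.01 once divided by the value of 1 read. The lists of peaks, deposited by the authors, carry a score per peak; BWA 0.7.10 and MACS2 2.1.0 are in the submitters' processing notes, while the caller of the H3K9me3 regions is not stated. Peak names say that replicates were merged in some lists.

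Log2(value + 1) of genes with at least 10 in at least 2 libraries (17254) was fitted with limma 3.58.1 (trend, 6 groups, 12 residual degrees of freedom, R 4.3.3), with Benjamini-Hochberg adjustment over all tested genes, for 7 comparisons and 2 interactions; folds of low genes are understated on this scale. edgeR 4.0.16 and DESeq2 1.42.0 were run on the recovered reads as alternatives, beside other scalings, pseudocount 10, no filter, a replicate block and leaving out each library. The fits across genes were tested on simulated data. Peaks and cores were set against promoter windows from RefSeq (GRCm38.p6), with at least 1 base of overlap. The members and lists were chosen with earlier results of these data known. Genes given by library are the rate-setting enzymes and transporters, the HIF genes and the main targets, and those at the extremes of a comparison; the rest are given by group, and up to 3 called genes are named per further list. Shares by coding length were planned but lengths were not at hand, so log2 ratios within a library are given instead. No pairing by replicate number was seen: correlations of same-numbered deviations ran from -0.41 to 0.13. Such values cannot exclude that equal numbers share a mouse or day. Values of 2 further list genes are not reported here.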

Additional observations from a re-analysis of the deposited data

Results flagged for a closer look

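The genotype effect in Th2 cells differed from that in naive cells for 37 of the 39 genes, by the interaction test of limma with Benjamini-Hochberg adjustment. Of all tested genes 41.3% were called in this test. Epas1 was the gene with a positive difference of effects, 2.09 on the log2 scale. The most negative ones were Vegfa at -5.46, Slc2a3 at -5.34 and Ndrg1 at -4.98.

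The genotype effect in Th2-Th1 cells differed from that in Th2 cells for 35 of the 39 genes by the same test, beside 35.5% of all tested genes. The most positive differences of effects were Ankrd37 at 3.88, P4ha2 at 3.45 and Eno1 at 3.44, and Epas1 was the gene with a called negative one, -1.94.

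Slc2a3 in naive WT library 1 was 864.4, apart from the other 3 naive WT libraries at 694.6 to 720.8. Such a gap arises by chance in about 1 in 20 groups.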

How the results depend on the processing

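Each comparison was recomputed under up to 22 other settings. In naive cells 12 genes were called, but 1 when only the naive libraries were fitted, 4 to 14 when a library was left out (4 without KO library 2) and 6 without the 3 naive libraries that stand apart. In Th2-Th1 cells 17 were called by genotype, and 9 to 15 when a library was left out. The 36 genes called in Th2 cells became 34 to 35 on leaving out a library, the 37 called in WT culture stayed 37, and the 33 called on switching WT became 31 to 33. Scaling to total reads turned Arnt in WT culture from 0.11 to -0.38 (limma, adjusted p = 0.0262); no other named gene changed direction with a call. Set against reads outside ribosomal protein genes and the members, the log2 ratio of enzyme shares was -1.54 for genotype in Th2 cells, 3.79 for WT culture and -1.61 for the WT switch, in place of -1.44, 3.7 and -1.52. With a replicate block, which the numbers do not warrant as pairing, 11, 36 and 17 genes were called by genotype in naive, Th2 and Th2-Th1 cells, and it moved no count by over 1.5 times. H3K4me1 promoter counts moved most: with the median score as a floor they were 12 in naive WT, 9 in Th2 WT, and 6 (WT) and 9 (KO) in the second experiment; with 50% of the window covered they were 8, 4 and 7 in the Th2 lists in that order. The cause of these moves was not tested. Depth limits low genes such as Eno2 and Aldoc in naive cells, and peak lists have no replicates.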

Other observations

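In Th2 cells labelled KO against Th2 WT, 24.7% of all tested genes fell and 29.3% rose. The lists given next were near or under these shares or had few tested genes, unlike the further hypoxia targets and the branches from glycolysis above. Of 13 genes that govern the entry of pyruvate into mitochondria or its use there, 3 fell and 2 rose (median -0.14 on the log2 scale). Pdk3, another kinase that holds back this use, was 3090 ± 119.3 in Th2 WT and 987.5 ± 40.85 in those labelled KO (SD, n = 3 each). Of 12 further regulators of HIF 2 were higher (Crebbp and Cited2) and 3 lower (Tceb1, Rbx1 and Tceb2, parts of the VHL complex), with a median of 0.04. Of 8 genes of gluconeogenesis and brakes on glycolysis 4 were tested, with Txnip, a brake on glucose uptake, higher at 0.85 and Pck2 and Pcx lower at -1.52 and -1.14.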
